A study of Rattus norvegicus and Mus musculus with 74 samples.

Results

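Cerebral cortex of healthy control mice was profiled by ChIP-seq for the histone marks H3K4me3 and H3K27me3, and both marks were compared over every genomic region that lists a gene. The members were 31125 of the 60110 regions in the mouse table, naming 23362 genes, in 6 of the series' 74 samples (3 libraries per mark). All 6 came from bulk brain cortex of C57BL/6J mice that had received vehicle. The same marks were read in 2 further groups of this strain, both with prenatal poly I:C injection, an RNA mimic that sets off an antiviral response. One of these received vehicle and the other TAK-418, a drug that blocks LSD1, the histone demethylase encoded by Kdm1a. Whether each library stands for its own animal is not in the labels, and p-values therefore measure the spread between these libraries, which may be technical. Age and sex are not in the labels either. Bulk tissue gives 1 signal per region, so marks carried by different cells, by different alleles or by different stretches of a region cannot be told apart from marks on the same nucleosomes.

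H3K4me3, trimethylation of lysine 4 on histone H3, is laid down at promoters by the SET1 and MLL complexes and is found at active and poised gene starts, most of them in CpG islands. H3K27me3 is written by Polycomb repressive complex 2, whose catalytic subunit is Ezh2, and covers silent developmental genes, often over long stretches. Regions that hold both are known from stem cells as bivalent and are frequent at genes for lineage-determining transcription factors. In cortex, Polycomb is known for silencing the transcription factors of other tissues in mature neurons.

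The 2 antibodies share no scale. Each region was therefore ranked by its mean signal within each library, from 0 (lowest) to 100 (highest percentile) over the 31125 regions, and the marks were compared by percentile. Ranks of both marks average 50 by construction, so differences in both directions must occur. Summed mean signal was 228138, 132340 and 123714 in the H3K4me3 libraries, and replicate 1 was the high one. The H3K27me3 libraries summed to 75639, 94146 and 95323, and replicate 1 was the low one, also in called intervals (3716, against 5850 and 6457). Called intervals of H3K4me3 were even, from 11348 to 11410. Percentiles of the regions correlated at 0.914 to 0.936 between H3K4me3 libraries, at 0.888 to 0.927 between H3K27me3 libraries and at 0.231 to 0.402 between the marks, across regions, which are not independent replicates.

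The labelled tissue was checked against marker genes. All 8 forebrain markers examined (among them Emx1, Tbr1, Neurod6, Slc17a7, Camk2a and Snap25) had an H3K4me3 interval in all 3 libraries, as had the 4 inhibitory neuron markers. All 4 astrocyte, all 5 oligodendrocyte and all 4 endothelial markers had H3K4me3 intervals in all 3 libraries, and so had 2 of 4 microglial ones. An interval alone does not show that a cell type was present, since all 3 striatal, 2 of 3 cerebellar and 3 of 5 markers of other tissues had one too. Of 5 markers of hindbrain and spinal cord, 3 had such H3K4me3 intervals and all 5 had H3K27me3 intervals in all 3 libraries, with H3K27me3 percentiles of 99.7 to 99.99. The part of any one cell type in the results was not tested.

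H3K4me3 ranked above H3K27me3 in 8961 regions, 28.8% of those tested, and H3K27me3 ranked above H3K4me3 in 9971, or 32.0% (limma on percentiles, Benjamini-Hochberg adjusted p below 0.05). A region was called dominated by a mark where the difference passed this test and reached 50 percentile points. H3K4me3 dominated 3081 regions (9.9%) and H3K27me3 dominated 1558 (5.01%). This balance depended on the regions ranked. Among the 12615 regions with an interval in at least 3 of 6 libraries, ranked anew, the counts were 2658 and 2997. That filter used calls of these same libraries, and intervals in all 3 libraries were more frequent for H3K4me3 (11026 regions) than for H3K27me3 (3513). The 13565 regions at gene starts, ranked anew, gave 2375 and 2786. Ranked by the highest signal inside the region in place of its mean, all 31125 regions gave 1799 and 377. Regions were called high in both where every one of the 6 libraries placed them at or above percentile 80, which held for 238 (0.765%). Counted by gene, with each gene taking the region nearest its start, H3K4me3 ranked higher at 11157 genes (47.8%) and H3K27me3 at 7356 (31.5%), 3963 genes (17.0%) were dominated by H3K4me3, 905 (3.87%) by H3K27me3 and 541 (2.32%) were high in both. Intervals of both marks lay at 4391 genes (18.8%).

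The marks did not simply replace each other. Below an H3K4me3 percentile of 10, the median H3K27me3 percentile was 7.38 ± 0.380 (SD, 3 libraries), so these regions were low in both. It was 77.3 ± 1.14 where H3K4me3 lay between percentiles 40 and 50, 63.2 ± 0.794 between 50 and 60, 76.5 ± 1.67 between 60 and 70, and 40.3 ± 5.82 above 90. Called intervals gave the same picture in counts. An H3K4me3 interval was called in all 3 libraries in 11026 regions (35.4%), an H3K27me3 interval in 3513 (11.3%), and both in 1994 (6.41%). H3K4me3 intervals alone were called in 8081 regions (26.0%), H3K27me3 intervals alone in 1335 (4.29%) and neither in any library in 15450 (49.6%). Those 1994 made up 56.8% of the H3K27me3 set and 18.1% of the H3K4me3 set. Among regions with a CpG island, 80.6% of those with H3K27me3 intervals also held H3K4me3 intervals, below the 90.7% of all island regions that did. Among regions without an island the share was 15.1%, above the 9.21% of all such regions.

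**Figure D1:**
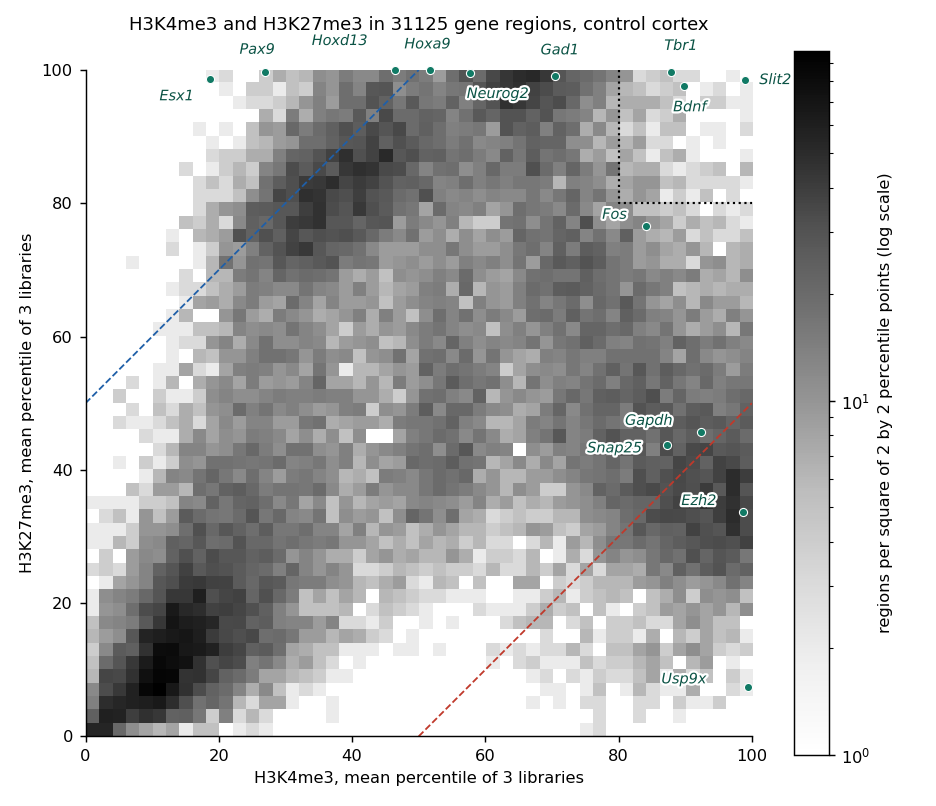
Mean percentile of H3K4me3 (horizontal) and of H3K27me3 (vertical) over 3 control libraries each; the grey scale gives the number of regions per square on a log scale, dashed lines mark a difference of 50 percentile points and the dotted corner marks percentile 80 of both means. Many regions lie low in both marks, Ezh2 and Usp9x lie in the H3K4me3 corner, Pax9 and Esx1 lie in the H3K27me3 corner, and Slit2, Bdnf and Tbr1 lie in the corner high in both.

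Genes dominated by H3K4me3 included many that cells of all types use. Usp9x, a deubiquitinase on chromosome X (region X, 13068600 to 13075599, mm10, holding the gene start), had H3K4me3 signals of 40.6, 18.9 and 21.2 and H3K27me3 signals of 1.36, 1.39 and 1.44. Its H3K4me3 percentile was 99.0 or more in each library and its H3K27me3 percentile never passed 8.45, a difference of 92.0 points (SE 3.15, limma adjusted p = 9.5e-07). Of the 10 regions with the largest difference in this direction, 9 lay on chromosome X and 8 held a CpG island, with differences of 89.9 to 93.3 points. Ogt, the O-GlcNAc transferase, had H3K4me3 percentiles of 99.5, 99.3 and 99.0 against H3K27me3 percentiles of 10.3, 7.33 and 9.30. The others on X were Mageh1, the kinase gene Rps6ka3, the zinc finger gene Zfp280c, the cohesin subunit gene Stag2, Brwd3, Nap1l3 and Cask, a scaffold protein of synapses. These regions were chosen for the size of the difference and for libraries of the marks that did not overlap in percentile.

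The one autosomal region among those 10 lists Tsen34, a subunit of the tRNA splicing endonuclease, and Mboat7. It is 399 bp long and carried no called interval of either mark, although its H3K4me3 signals were 61.5, 29.1 and 31.6 and its H3K27me3 signals 1.30, 0 and 1.58. A further list restricted to autosomes was added after chromosome X was seen to stand apart. It held Trip12, a ubiquitin ligase, with H3K4me3 signals of 34.6, 18.4 and 16.3 against H3K27me3 signals of 1.61, 1.45 and 1.56. Nipbl, the cohesin loader, differed by 85.1 points (SE 4.38, limma adjusted p = 5.5e-06), and Mbd5, of the methyl-CpG-binding domain family, by 83.0 points (SE 4.88, limma adjusted p = 9.7e-06). Cggbp1, Dr1, Mrpl44, Zbtb44, Fut8 and Zfp931 completed the 10, whose differences ran from 81.3 to 93.3 points.

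Basic cell machinery leaned to H3K4me3, although not without exception. Over all genes, 47.8% ranked higher for H3K4me3, 31.5% ranked higher for H3K27me3 and 17.0% were dominated by H3K4me3. Of 31 proteasome subunit genes, 28 had a higher H3K4me3 rank and 13 were dominated by it, with a median difference of 43.9 points against 6.60 over all genes. Psma1, a core subunit, had H3K4me3 signals of 35.4, 17.7 and 18.5 and H3K27me3 signals of 1.83, 1.99 and 2.02 (difference 68.6 points, SE 2.61, limma adjusted p = 1.4e-06). Respiratory chain genes gave 32 of 43 with higher H3K4me3, 20 of them dominated, and a median difference of 43.1 points. Atp5j, of the ATP synthase, differed by 67.6 points (SE 2.96, limma adjusted p = 2.4e-06). Among ribosomal protein genes, 45 of 64 ranked higher for H3K4me3 and 10 for H3K27me3. The lean was weaker there, with 16 (25.0%) dominated by H3K4me3 and a median difference of 20.9 points. Intervals of both marks lay at 17 (26.6%), against 18.8% of all genes.

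All 20 exceptions of these 3 lists lay in regions of 24599 to 359199 bp that list more than 1 gene. By the highest signal, 8 of the 20 still ranked higher for H3K27me3. The share of the other list members in such regions is not given here. Sharing was frequent among genes in general, since the 23362 genes took 16072 regions. Rpl10a sits in a region of 87199 bp that lists 6 genes, and its H3K27me3 percentiles were 98.6, 98.7 and 98.8 against H3K4me3 percentiles of 71.9, 71.7 and 71.7. Rpl13a lies in a region of 95199 bp that lists 19 genes, among them Slc17a7, the vesicular glutamate transporter, so both carry the same values there. Ranked by the highest signal inside the region in place of the mean, Rpl10a differed by -1.7 points (limma adjusted p = 0.092) and no longer passed the test. Ndufb8, a subunit of complex I in a region of 87599 bp, moved from -27.6 points to 0.2 (limma adjusted p = 0.88). A region value is thus a statement about the stretch, not about each gene in it, and 30.4% of the 31125 regions list more than 1 gene. Both lists still leaned to H3K4me3 under the highest signal, with 45 ribosomal protein genes higher for it and 5 higher for H3K27me3, and with 35 and 3 for the respiratory chain.

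Among the 10 regions with the largest differences toward H3K27me3, 4 belonged to transcription factors (Esx1, Pou5f1, Pax9 and Olig3). The largest difference that carried H3K27me3 intervals in all 3 libraries was at Esx1, a homeobox gene of placenta and testis (region X, 137112000 to 137131399), with H3K27me3 signals of 6.15, 7.70 and 8.46 against H3K4me3 signals of 1.72, 1.23 and 1.19. The difference was -80.0 points (SE 3.07, limma adjusted p = 1.5e-06). Pou5f1, the pluripotency factor Oct4 (region 17, 35498800 to 35511799), had H3K27me3 percentiles of 98.1, 97.7 and 98.1 and H3K4me3 percentiles of 25.9, 18.2 and 28.2. Pax9, a paired-box factor of pharynx and teeth (region 12, 56666800 to 56713199, 4 CpG islands), had H3K27me3 signals of 8.84, 12.6 and 12.7 and H3K4me3 signals of 1.93, 1.28 and 1.35. Olig3, a factor of dorsal hindbrain and spinal cord (region 10, 19325800 to 19381199), differed by -71.7 points (SE 2.53, limma adjusted p = 1.0e-06). In each of these genes the lowest H3K27me3 percentile lay more than 60 points above the highest H3K4me3 percentile. The choice of these regions for a large difference without overlap fixed this in part.

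The other 6 were Calcr, the calcitonin receptor, Slc5a1, the intestinal sodium-glucose transporter, Tmem45b, the small nuclear RNA gene Rnu1b1, the T cell receptor segment Trav13-2 and Topaz1. When intervals in all 3 libraries were asked for, an addition made after the values were seen, Topaz1, Rnu1b1 and Trav13-2 gave way to the receptor gene Gpr50, the transcription factor gene Tcf21 and D7Ertd143e. The first place of the 10 went to Topaz1, a germ cell gene, in a region of 599 bp with no called interval (H3K27me3 signals of 4.74, 5.42 and 7.21, H3K4me3 signals of 1.5, 1.25 and 0). Of the 1558 regions dominated by H3K27me3, 694 (44.5%) had an H3K27me3 interval in all 3 libraries and 294 (18.9%) had one in none. By contrast 98.6% of H3K4me3-dominated regions had their interval in all 3. The 294 without intervals had a median H3K27me3 signal of 3.95 ± 0.715, against 5.30 ± 1.21 in the 694.

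All 39 Hox genes, which pattern the body axis behind the forebrain, had a higher H3K27me3 rank. They lie in 4 regions, 1 per cluster, so these are 4 values and not 39. In the region of Hoxa9 (6, 52134800 to 52333599, 198799 bp) the H3K27me3 signals were 14.8, 22.0 and 22.9 and the H3K4me3 signals 2.67, 1.83 and 1.67. That of Hoxd13 (2, 74627600 to 74773599) had H3K27me3 signals of 12.8, 18.6 and 19.4 and H3K4me3 signals of 2.32, 1.73 and 1.58. Hoxb8 differed by -65.1 points (SE 2.07, limma adjusted p = 7.5e-07) and Hoxc9 by -43.4 (SE 1.52, limma adjusted p = 1.1e-06). The HoxB cluster had no H3K4me3 interval in any library, while those of HoxA, HoxC and HoxD had both marks called in all 3. All 4 clusters thus lay at H3K27me3 percentiles of 99.7 or more, with H3K4me3 percentiles between 34.2 and 58.1.

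Lineage transcription factors of other tissues leaned the same way: 75 of 77 ranked higher for H3K27me3 and 36 were dominated by it, with a median difference of -45.2 points. Gata6, a factor of endoderm and heart, had H3K27me3 signals of 14.5, 20.2 and 20.5 and H3K4me3 signals of 2.82, 1.75 and 1.59. Its difference of -49.5 points (SE 1.60, limma adjusted p = 8.3e-07) fell just short of dominance. T, the mesoderm factor brachyury, passed it at -54.2 points (SE 2.10, limma adjusted p = 1.6e-06). Myod1, the muscle regulator, had H3K4me3 intervals in all 3 libraries in its region of 109999 bp, and its difference was -20.1 points (SE 1.01, limma adjusted p = 4.6e-06). Terminal genes of liver, muscle, blood and skin gave 23 of 32 higher for H3K27me3 and 8 dominated. Among all genes, 31.5% ranked higher for H3K27me3 and 3.87% were dominated by it. Krt5, an epidermal keratin, had H3K27me3 signals of 4.05, 6.35 and 6.67 and H3K4me3 signals of 2.03, 1.38 and 1.36.

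**Figure D2:**
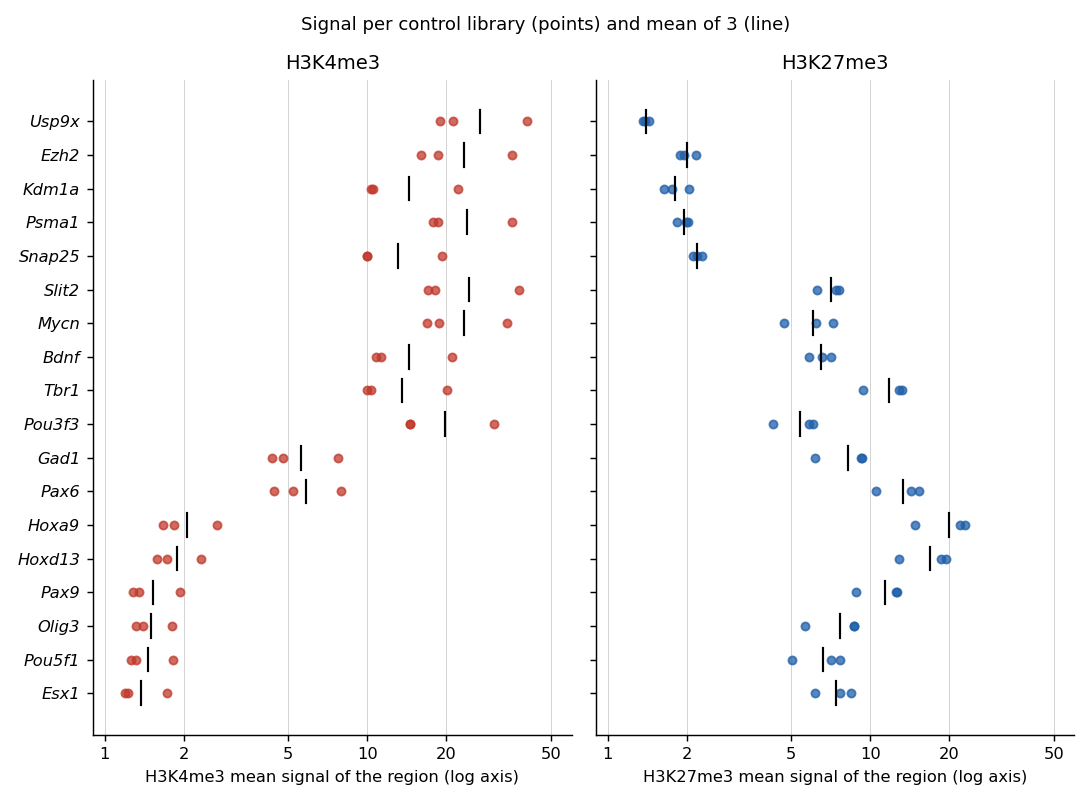
Mean signal of H3K4me3 (left) and H3K27me3 (right) on log axes for 18 genes, 1 point per control library and a line at the mean of 3. H3K4me3 replicate 1 is the rightmost red point of each gene; genes from Usp9x to Snap25 have H3K27me3 signals near 2 or below, genes from Slit2 to Pou3f3 are raised in both panels, and genes from Hoxa9 to Esx1 have H3K4me3 signals under 3.

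Slit2, an axon guidance ligand (region 5, 47981200 to 47987999, 2 CpG islands), had H3K4me3 signals of 37.7, 18.1 and 17.1 and H3K27me3 signals of 6.30, 7.63 and 7.40. Its lowest percentile in the 6 libraries was 97.8, and the marks' percentiles overlapped. Mycn, the MYC-family factor of neural progenitors (region 12, 12935600 to 12946999), had H3K4me3 percentiles of 98.5, 99.0 and 98.7 and H3K27me3 percentiles of 97.5, 95.9 and 97.5. Fgf9, a growth factor made by neurons, had H3K4me3 signals of 39.4, 20.0 and 17.3 and H3K27me3 signals of 5.08, 6.47 and 6.03. The homeobox gene Mkx, the hair follicle gene Tchh, the CDK5 activator Cdk5r2, the teneurin Tenm4, the POU factor Pou3f3, the postsynaptic scaffold gene Dlgap2 and the cadherin Fat4 made up the rest of the first 10. All 10 held a CpG island and had intervals of both marks in all 3 libraries. Ranked by the highest signal in the region, the lowest percentile fell in all 10, from 72.6 at Slit2 to 95.02 at Cdk5r2, and 5 of them were then under 80.

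Several genes of cortical projection neurons held both marks high. Of 28 genes for excitatory neuron and layer identity, 21 ranked higher for H3K27me3 and 22 had intervals of both marks. These shares were 31.5% and 18.8% over all genes. High in both were 5 (17.9%), against 2.32% of all genes. Among the 5 were Tbr1, Bhlhe22, Pou3f2 and Pou3f3. At Tbr1, a factor of deep-layer neurons (region 2, 61800000 to 61821399), the H3K4me3 signals were 20.1, 10.3 and 9.99 and the H3K27me3 signals 9.41, 12.9 and 13.3. Both marks were high in every library, at percentiles of 86.9 or more for H3K4me3 and 99.7 or more for H3K27me3. Pou3f3, a POU factor of upper-layer neurons, had H3K4me3 signals of 30.4, 14.5 and 14.5 and H3K27me3 signals of 4.26, 6.06 and 5.83, with a lowest percentile of 93.6 over the 6 libraries.

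Inhibitory neuron genes mostly ranked higher for H3K27me3. Of 32, 29 ranked higher for it, 24 had intervals of both marks and 2 were high in both. Over all genes these shares were 31.5%, 18.8% and 2.32%. Gad1, which makes GABA (region 2, 70542200 to 70593399), had H3K4me3 signals of 7.72, 4.76 and 4.32 and H3K27me3 signals of 6.18, 9.28 and 9.21. Its difference of -28.6 points (SE 0.66, limma adjusted p = 5.2e-07) came with percentiles of 99.0 or more for H3K27me3 in each library. Lhx6, a factor of interneurons from the medial ganglionic eminence, differed by -38.5 points and Dlx1, a factor of their progenitors, by -34.01. Progenitor and patterning factors of the forebrain gave 49 of 54 higher for H3K27me3, 46 with intervals of both marks and 7 high in both. Pax6, the eye and dorsal forebrain factor, had H3K27me3 signals of 10.5, 14.3 and 15.3 and H3K4me3 signals of 7.92, 5.21 and 4.42. Neurog2, a proneural factor, differed by -41.8 points (SE 1.80, limma adjusted p = 2.6e-06).

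Synaptic vesicle and postsynaptic genes leaned the other way, with 29 of 40 (72.5%) higher for H3K4me3 and a median difference of 27.3 points. Another 10 (25.0%), or 6 by the highest signal, ranked higher for H3K27me3. The shares over all genes were 47.8% for H3K4me3 and 31.5% for H3K27me3. Snap25, a SNARE protein of synaptic vesicle release, had H3K4me3 signals of 19.2, 9.99 and 10.0, H3K27me3 signals of 2.29, 2.19 and 2.11 and no H3K27me3 interval. The libraries of the marks did not overlap in percentile (lowest H3K4me3 86.0, highest H3K27me3 52.7). Potassium channel genes were split, with 23 of 53 (43.4%) higher for each mark, where 47.8% and 31.5% of all genes were, and 27 (50.9%) with intervals of both. Immediate early genes were split as well, 13 of 29 each way. Intervals of both lay at 15 (51.7%), against 18.8% of all genes. High in both were 4 (Bdnf, Egr4, Nr4a3 and Jund), or 13.8%, against 2.32% of all genes.

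Among the immediate early genes, Bdnf, the neurotrophin (region 2, 109671200 to 109681199), had H3K4me3 signals of 21.1, 10.7 and 11.3 and H3K27me3 signals of 5.86, 7.07 and 6.53. Every one of its H3K27me3 percentiles (98.9, 97.7 and 96.1) lay above every one of its H3K4me3 percentiles (89.9, 88.0 and 91.5). Fos, of the AP-1 factor, had H3K4me3 percentiles of 84.1, 83.4 and 84.6 and H3K27me3 percentiles of 80.8, 72.3 and 76.6. Its difference of 7.45 points (SE 2.10, limma adjusted p = 0.0185) was -0.75 points by the highest signal.

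Of 39 monoamine and acetylcholine receptor genes, 25 ranked higher for H3K27me3 and 8 for H3K4me3 (5 by the highest signal), 21 (53.8%) had intervals of both and 8 (20.5%) were high in both, among them Adra2a, Hrh3, Adrb1, Chrm2, Htr1a, Hrh2 and Htr1b. Htr1a, the serotonin 1A receptor (region 13, 105441600 to 105449399), had H3K4me3 signals of 19.2, 11.3 and 8.73 and H3K27me3 signals of 3.90, 5.25 and 5.31. All 19 Wnt ligand genes, in 16 regions, ranked higher for H3K27me3 (15 by the highest signal) and none was dominated by it. Their median H3K4me3 percentile was 67.6 ± 0.326. FGF, BMP and GDF ligands gave 31 of 40 higher for H3K27me3 and 8 (5 by the highest signal) higher for H3K4me3. For comparison, 31.5% of all genes ranked higher for H3K27me3, 47.8% for H3K4me3, 18.8% had intervals of both and 2.32% were high in both. Fgf8, a patterning ligand, had H3K27me3 signals of 7.10, 10.8 and 11.2 and H3K4me3 signals of 6.40, 3.63 and 3.64.

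Glial and vascular markers were mostly higher for H3K27me3 in this bulk tissue: 9 of 15 astrocyte, 12 of 20 oligodendrocyte lineage, 12 of 17 microglial and 16 of 20 endothelial and mural genes. Of all genes, 31.5% ranked so. By the highest signal the 4 counts were 9, 10, 8 and 17, so the oligodendrocyte lineage and microglial lists no longer had a majority. Olig2, of the oligodendrocyte lineage, had H3K27me3 signals of 7.61, 11.7 and 12.0 and H3K4me3 signals of 6.19, 3.47 and 3.69. Gfap, the astrocyte filament, differed by -21.6 points (SE 1.04, limma adjusted p = 3.6e-06) with intervals of both marks in all 3 libraries. Cx3cr1, the microglial chemokine receptor, had intervals of each mark in 2 of 3 libraries and a difference of -24.4 points (SE 2.29, limma adjusted p = 8.0e-05). Cell cycle inhibitor genes gave 4 of 7 higher for H3K27me3. Cdkn2a and Cdkn2b, which share a region, had H3K27me3 signals of 8.11, 12.3 and 12.5 and H3K4me3 signals of 3.87, 2.95 and 2.71.

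**Figure D3:**
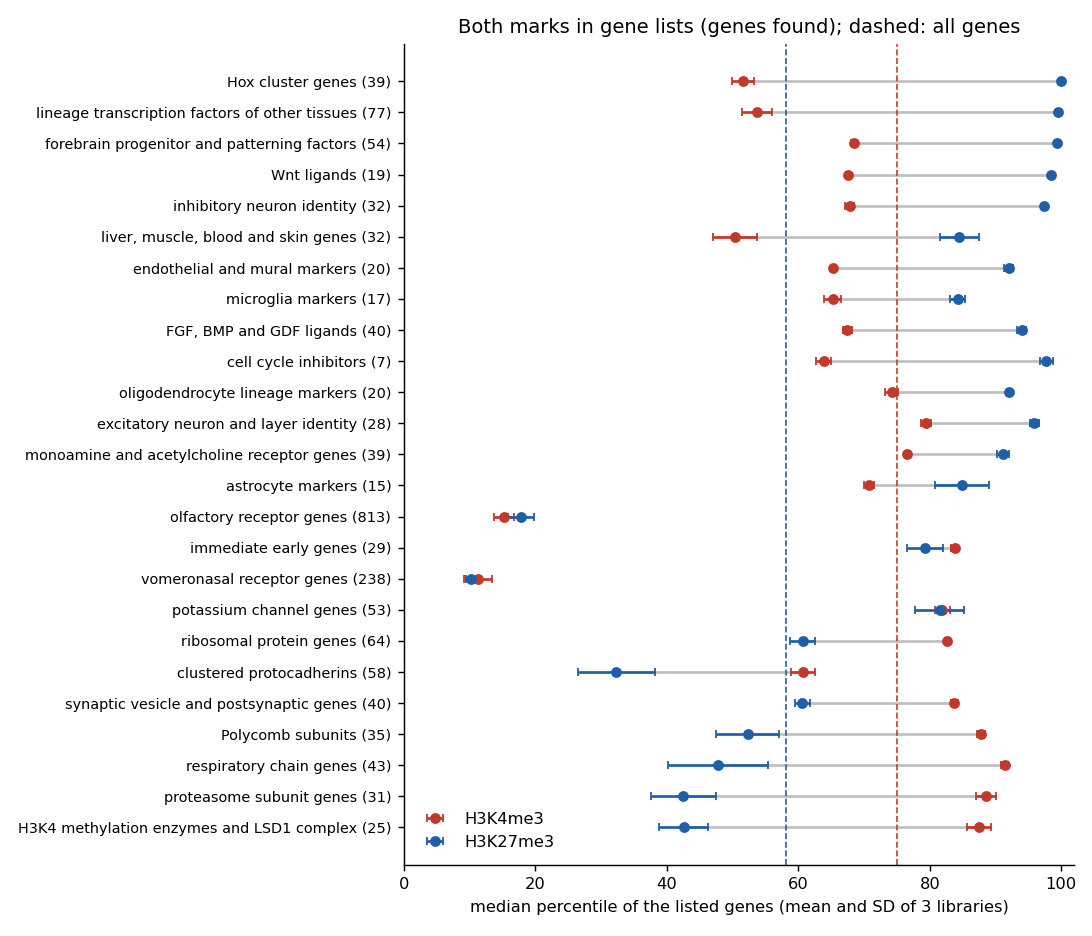
Median percentile of H3K4me3 (red) and H3K27me3 (blue) over the genes of each list, as mean and SD of 3 control libraries, ordered by the median difference; dashed lines give the medians of all genes (74.97 for H3K4me3 and 58.1 for H3K27me3). H3K27me3 lies near 100 in the Hox, lineage factor and progenitor lists, both marks lie above 79 in the immediate early and potassium channel lists, and both lie under 18 in the olfactory and vomeronasal receptor lists.

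The enzymes of the marks themselves were mainly in H3K4me3 chromatin. Of 25 genes for H3K4 methylation enzymes and the LSD1 complex, 21 ranked higher for H3K4me3 and 11 were dominated by it. Over all genes these shares were 47.8% and 17.0%. Kdm1a, which encodes LSD1, the target of the drug in this series (region 4, 136596800 to 136605199), had H3K4me3 signals of 22.2, 10.3 and 10.5 and H3K27me3 signals of 1.64, 2.03 and 1.76. Its percentiles did not overlap (H3K4me3 86.8 or more, H3K27me3 32.0 or less), and the difference was 65.0 points (SE 4.22, limma adjusted p = 1.5e-05). Rcor3, a corepressor partner of LSD1, differed by 76.9 points (SE 3.31, limma adjusted p = 2.4e-06). The zinc finger repressors Gfi1 and Gfi1b, blood-lineage partners of LSD1, were the 2 members of the list dominated by H3K27me3. Gfi1 had H3K27me3 signals of 9.73, 14.1 and 14.1 and H3K4me3 signals of 2.07, 1.65 and 1.51.

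Polycomb subunit genes gave 26 of 35 (74.3%) higher for H3K4me3 and 9 (25.7%) higher for H3K27me3, where 47.8% and 31.5% of all genes were. By the highest signal these counts were 23 and 4. Ezh2, the H3K27 methyltransferase (region 6, 47591000 to 47598399), had H3K4me3 signals of 35.6, 18.6 and 16.0 and H3K27me3 signals of 2.17, 1.89 and 1.95, a difference of 65.0 points (SE 5.42, limma adjusted p = 4.6e-05). The reader genes Cbx2 and Cbx8 share a region of 226399 bp on chromosome 11 (118934400 to 119160799) that was itself rich in the mark they bind. There the H3K27me3 signals were 7.48, 10.5 and 11.2 and the H3K4me3 signals 7.43, 4.30 and 4.25, a difference of -29.8 points for Cbx2 (SE 0.69, limma adjusted p = 5.2e-07). Pcgf1, of a variant Polycomb complex, had H3K27me3 percentiles of 99.6 in each library, but its difference fell from -25.6 points to -1.2 by the highest signal (limma adjusted p = 0.18).

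Some gene families had little of either mark. Of 813 olfactory receptor genes, 752 lay in regions without an interval of either mark in any of the 6 libraries. Over all genes, 4527 of 23362 did. The median percentiles of olfactory receptor genes were 15.2 ± 1.47 for H3K4me3 and 17.8 ± 1.95 for H3K27me3. Vomeronasal receptor genes were alike, with 234 of 238 without such intervals. In both families the H3K9me3 percentile was high, at 75.4 ± 2.40 and 79.7 ± 3.15, against 43.4 ± 2.57 over all genes. These values lay nearer to the 72.2 ± 2.06 of all 15450 regions without an interval of H3K4me3 or H3K27me3. Clustered protocadherins, the adhesion genes that give neurons their surface identity, were higher for H3K4me3 in 49 of 58 and for H3K27me3 in 0, in 15 regions. Under the highest signal 18 of the 58 were higher for H3K4me3. Their H3K9me3 percentile was the highest of the lists, at 99.5 ± 0.0811, with H3K27me3 at 32.3 ± 5.87. Pcdhac2, of the C-type protocadherins, had H3K4me3 percentiles of 99.0, 98.9 and 98.3. Taken by the region with the highest mean over all mouse libraries, the protocadherin medians were 47.3 ± 10.4 for H3K9me3 and 83.4 ± 0.845 for H3K4me3, so this value depends on which region stands for a gene.

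CpG islands, which the classes were not defined by, differed in share between them. Length, also no part of their definition, differed in its median but overlapped widely. An island lay in 86.0% of H3K4me3-dominated regions, 94.1% of those high in both and 13.6% of H3K27me3-dominated ones, against 32.2% of all. Of the regions high in both, 42.9% held at least 2 islands, against 7.01% of all regions. The share was 7.14% in H3K4me3-dominated regions, 5.84% in H3K27me3-dominated ones and 43.4% in those with intervals of both. As the number of islands in a region went from 1 to at least 3, the median H3K27me3 percentile went from 50.7 ± 2.72 to 85.3 ± 2.47, while that of H3K4me3 went from 83.7 ± 0.0611 to 75.2 ± 0.477. H3K27me3-dominated regions with intervals in all 3 libraries held an island in 27.8% of cases.

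The median length was 8999 bp in H3K4me3-dominated regions, the same as over all regions. It was 12999 bp in H3K27me3-dominated ones, 17299 bp in those high in both and 37599 bp in those with intervals of both. The quartiles of the first 3 overlapped, at 6799 to 11999 bp, 6599 to 27799 bp and 10799 to 29099 bp in that order. Over all regions, H3K27me3 rose with length, from a median percentile of 28.4 ± 2.54 in regions of 199 to 4199 bp to 76.1 ± 0.649 in those of 20399 bp or more, and H3K4me3 from 25.6 ± 0.354 to 64.5 ± 0.0356. Regions are merged over all mouse libraries, so length is set in part by the marks. When only regions up to the median length were ranked, 74 held intervals of both marks. The part of length in the classes was not tested further.

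The active mark H3K9Ac and the heterochromatin mark H3K9me3, which played no part in choosing the classes, were read in the same mice's group. H3K9Ac stood at a median percentile of 88.5 ± 1.40 in H3K4me3-dominated regions, 86.8 ± 1.32 in regions high in both and 37.1 ± 0.301 in H3K27me3-dominated regions. In each library the regions high in both lay a little lower than the H3K4me3-dominated ones (87.9, 85.3 and 87.1 against 89.9, 87.1 and 88.4). With classes taken from called intervals the gap was wider: regions with intervals of both had an H3K9Ac percentile of 64.8 ± 0.742, and those with H3K4me3 intervals alone 84.6. H3K9me3 was low in all 3 classes, at 21.7 ± 7.71, 37.5 ± 3.77 and 36.0 ± 8.09 in the order above, against 55.1 ± 0.614 in the other regions.

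**Figure D4:**
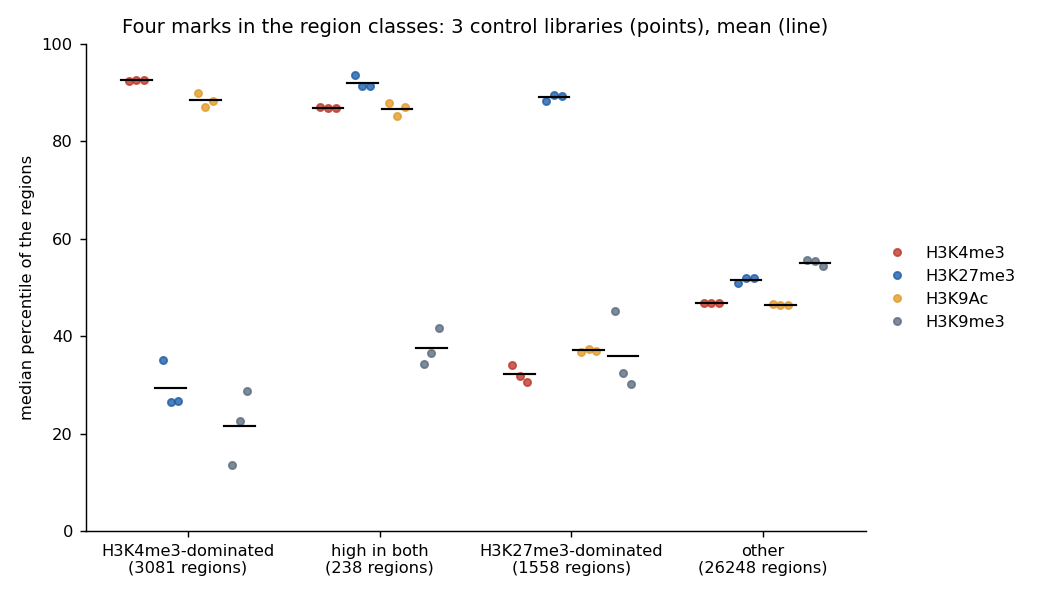
Median percentile of 4 marks in H3K4me3-dominated regions, regions high in both, H3K27me3-dominated regions and all others, with 1 point per control library and a line at the mean. H3K4me3 and H3K27me3 defined the classes; H3K9Ac lies above 85 in all 3 libraries of the first and second class and under 38 in the class dominated by H3K27me3.

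Chromosome X stood apart. It held 778 of the regions, 2.5%, but 394 of those dominated by H3K4me3, 12.8%. That class took 50.6% of X regions, against 6.06% to 11.5% on single autosomes. The median H3K27me3 percentile of X regions was 12.2 ± 2.85 (autosomes 43.7 to 62.7), and that of H3K9me3 was 4.38 ± 1.10 (autosomes 44.1 to 59.6). H3K4me3 stood at 74.2 ± 0.237, above every autosome (highest 57.7), and H3K9Ac at 60.04 ± 4.68, within its spread of the highest autosome (59.3). In median signal, X regions had 1.53 ± 0.0015 for H3K27me3 and 1.47 ± 0.0489 for H3K9me3, where autosomal regions had 2.38 ± 0.111 and 2.11 ± 0.308. For H3K4me3 the medians were 7.18 ± 2.51 on X and 2.00 ± 0.559 on autosomes. None of the 238 regions high in both lay on X. Some X genes nevertheless carried H3K27me3: 17 X regions were dominated by it, among them Esx1 and Gpr50. On chromosome Y, 4 of 27 regions were dominated by H3K4me3, including Ddx3y, an RNA helicase, with H3K4me3 signals of 20.5, 11.8 and 10.4. Without chromosomes X and Y, the re-ranked autosomes gave 2915 H3K4me3-dominated and 1467 H3K27me3-dominated regions. Kdm5d on Y also had an H3K4me3 interval in all 3 libraries. Input chromatin is not analysed here, and the part of X copy number in these ranks was not tested.

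**Figure D5:**
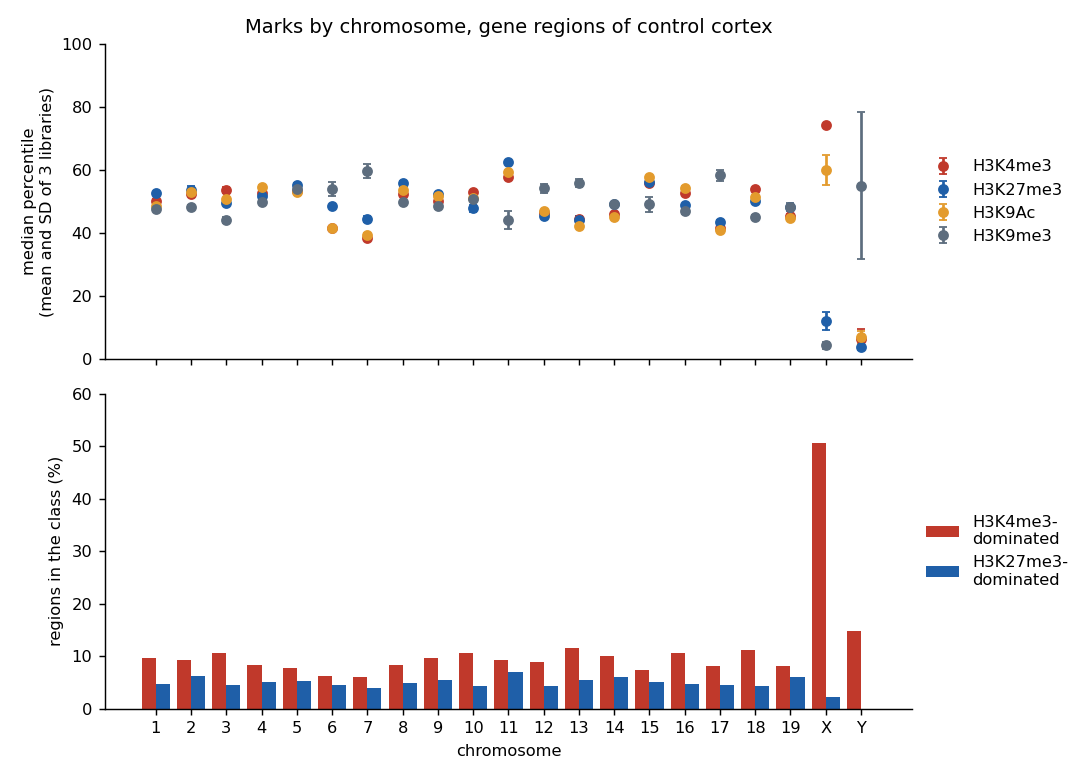
Top, median percentile of 4 marks in the gene regions of each chromosome (mean and SD of 3 control libraries); bottom, share of the regions of each chromosome dominated by H3K4me3 or by H3K27me3. Chromosome X has the highest H3K4me3 and the lowest H3K9me3 medians and 50.6% of its regions are dominated by H3K4me3; Y holds 27 regions.

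Values around the thresholds were continuous. The named gene just inside H3K4me3 dominance was Acn9, at 50.0005 points, and just outside it was Tcf4, at 49.99. For H3K27me3 these were Olfr288 (50.02 points) and Olfr157 (49.98). Chst1 was just inside the class high in both, with a lowest percentile of 80.0016, and Pdgfb just outside it, with 79.99.

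The classes were read again in libraries that had not defined them. In poly I:C mice given vehicle, 3062 of the 3081 H3K4me3-dominated regions (99.4%) and 1467 of the 1558 H3K27me3-dominated regions (94.2%) passed the same test in the same direction, where 26.1% and 28.3% of all regions did. In poly I:C mice given TAK-418 the counts were 3065 (99.5%) and 1524 (97.8%), where 27.2% and 30.2% of all regions did. The difference took the opposite sign in 2 regions, both H3K27me3-dominated, under TAK-418. Dominance itself, with its limit of 50 points, recurred in 2570 (83.4%) and 912 (58.5%) regions under vehicle, where 9.72% and 5.24% of all regions were dominated. It recurred in 2315 (75.1%) and 903 (58.0%) under TAK-418, where 8.65% and 4.97% of all were. The control libraries had chosen these members at that limit. Of the 238 regions high in both, 158 (66.4%) were so in vehicle mice and 198 (83.2%) in TAK-418 mice, where 0.562% and 0.861% of all regions were. The median difference of the H3K4me3-dominated regions was 60.3 points in controls, 59.7 under vehicle and 56.7 under TAK-418.

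Whether the difference between marks itself depended on the group was tested in all 18 libraries. Between poly I:C vehicle and control mice, 0 of 31125 regions passed (limma, smallest adjusted p = 0.221), with 1218 at an unadjusted p under 0.05 (3.91%), and under normal scores 1 region passed. Between TAK-418 and control 0 passed, with 1387 at an unadjusted p under 0.05 (4.46%). Between TAK-418 and vehicle 8 passed (0.0257%), 6 with a difference shifted toward H3K4me3. With the replicate numbers as a block 0 passed, and without replicate 3 of the vehicle H3K27me3 libraries 45 passed, so these 8 rest on the choice of libraries and fit.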

How the data were processed

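Chromatin of frozen cortex was immunoprecipitated with antibodies to each mark and sequenced, per the labels' protocols. Reads were aligned with BWA 0.7.12 to mm10, per the submitters' processing notes. The sources used here name no peak caller, bin width or scaling, and read depth is unknown. The deposited table gives, per the file headers, mean signal, highest signal and an interval call (0 or 1) for each merged region and library. The mean signal is 0 or at least 1. Genes, CpG islands and distances are those of the deposited table.

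Mean signal was converted to percentile ranks (ties averaged) over regions listing a gene. limma 3.58.1 (trend, robust) in R 4.3.3 tested H3K4me3 minus H3K27me3 in 3 libraries each, with Benjamini-Hochberg adjustment over 31125 regions at 0.05, after a check on simulated data. No low-value filter was applied. A gene took the region nearest its start. Named genes were the 10 largest differences each way, among regions past the test whose marks did not overlap in percentile. The 10 highest in both were named too. All of these had a gene start within 1000 bp. Up to 4 members per list by smallest p and a fixed set were also named. Other names, such as list members high in both and Hoxb8, Hoxc9, Ddx3y, Gpr50 and Krt5, were chosen after their values were seen. Members and lists were chosen with earlier results of these data known. Of 1890 listed names, 1868 were found, and results of some genes are not reported here. The labels do not say whether replicate numbers pair the marks' libraries, and the main fit did not pair them. Alternatives were a replicate block, the highest signal, normal scores, filters, other thresholds and leaving out libraries.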

Additional observations from a re-analysis of the deposited data

Results flagged for a closer look

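The difference between H3K4me3 and H3K27me3 percentiles changed between poly I:C TAK-418 and poly I:C vehicle mice in 8 regions (limma interaction over 18 libraries, adjusted p of 0.0205 to 0.0490), which brought them here. These are 0.0257% of the regions tested, none is called with a replicate block or under the highest signal, and their cause was not tested.

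In 3 developmental or signalling regions the shift was in H3K4me3. Fzd5, a Wnt receptor, shifted by 12.0 points (SE 1.48): its H3K4me3 percentiles were 86.8, 81.0 and 82.3 under vehicle, 95.6, 94.2 and 94.6 under TAK-418 and 89.0, 90.7 and 88.7 in controls, so the treated libraries lay above both other groups. Foxb2, a forkhead factor, shifted by 16.3 points (SE 2.35), with H3K4me3 percentiles of 44.2, 46.9 and 43.1 under vehicle, 61.3, 61.5 and 60.1 under TAK-418 and 41.6, 47.9 and 45.6 in controls. Ptger4, a prostaglandin receptor, shifted by 9.74 points (SE 1.42), with H3K4me3 percentiles of 69.7, 69.95 and 71.9 under vehicle, 76.8, 79.5 and 81.3 under TAK-418 and 70.2, 70.9 and 71.6 in controls.

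A region that lists Commd3 and the Polycomb gene Bmi1 (2, 18686000 to 18703399) shifted by 4.91 points (SE 0.775). Its H3K4me3 percentiles were 79.4, 81.3 and 80.2 under vehicle and 84.8, 85.1 and 85.6 under TAK-418. The region nearest the start of Bmi1 is a different one (2, 18670000 to 18683799) and was not flagged. Il1rap, a subunit of the interleukin 1 receptor, shifted by -25.4 points (SE 3.55) through H3K27me3, whose percentiles were 29.0, 32.2 and 26.6 under vehicle and 56.0, 53.2 and 54.8 under TAK-418, with 39.8, 37.8 and 33.1 in controls. Dnahc14, a dynein gene, shifted by 40.6 points (SE 6.32), the gene model Gm13023 by -39.1 (SE 5.99) and a cluster of 5S RNA copies with Rn5s30 by 48.5 (SE 7.65). H3K4me3 signals at Gm13023 were near the floor, at 1.56, 1.40 and 1.30 under vehicle and 0, 0 and 1 under TAK-418. Those at Rn5s30 were 1.22, 0 and 1 under vehicle and 2.5, 2.6 and 1.5 under TAK-418. In these last regions vehicle libraries were the ones away from control and TAK-418 libraries, and the 5S copies are near-identical sequences whose reads may be placed uncertainly.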

How the results depend on the processing

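The highest signal in place of the mean gave 1799 H3K4me3-dominated, 377 H3K27me3-dominated and 807 high-in-both regions. With an interval in at least 3 of 6 libraries, 5970 regions ranked higher for H3K4me3 and 5271 for H3K27me3, and the marks dominated 2658 and 2997. Regions at a gene start gave 5820 and 5536, with 2375 and 2786 dominated. Regions up to the median length gave 2930 and 3244 higher, 952 and 431 dominated, and 74 with both intervals. Fewer regions were tested in these settings (12615, 13565 and 15712), and each set was ranked anew. A limit of 25 points gave 6689 and 7544 dominated regions and one of 75 points 259 and 15. Asking for intervals of the dominant mark only, an alternative chosen after seeing the data like the autosomes and the regions of at least 1000 bp, left 679 for H3K27me3. A lowest percentile of 70 or 90 gave 1417 or 27 high in both, and an interval in at least 1 of 3 libraries 3222 with both.

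Classes from intervals moved H3K9Ac to 84.6, 43.2 and 64.8 and H3K9me3 to 30.8 (H3K4me3 only) and 43.2 (both). Leaving out single libraries gave 8384 to 9335 and 9383 to 10410 higher, 2860 to 3398 and 1510 to 1789 dominated, 246 to 276 high in both, 2018 to 2497 with both intervals, and group-dependent differences of 0 to 6 (vehicle minus control), 0 to 45 (TAK-418 minus vehicle) and 0 to 4 (TAK-418 minus control). The 45 came without vehicle H3K27me3 replicate 3, 24 without vehicle H3K4me3 replicate 1. Normal scores gave 1 and 3, and the highest signal 0 for TAK-418 minus vehicle. High in both and intervals of both ask for every library, so leaving 1 out could only keep or raise their counts (238 and 1994 with none left out).

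The replicate block gave 8727 and 9813 higher, 3082 and 1558 dominated and 0 group-dependent regions. Same-numbered libraries of the marks correlated at 0.0097, 0.0142 and 0.0077 in their deviations, and differently numbered ones at -0.0098 to 0.0012. Whether the numbers pair the libraries is unknown, and the main fit did not treat them as pairing. Fos turned to -0.75 (highest signal), -6.64 (interval filter) and -6.30 (gene starts). Of the other named differences followed, 808 values kept direction and side and 4 missed the threshold. The 10 regions highest in both were followed by their lowest percentile, not by their difference. By the highest signal, Mycn went from 1.76 to -14.4 points, Fgf9 from 2.79 to -10.6 and Tenm4 from 3.68 to -7.62. Fat4 went from 3.15 to -10.9 and Slit2 from 0.51 to -21.5. Pou3f3 and Cdk5r2 also changed sign, while Mkx, Tchh and Dlgap2 kept theirs. Causes were not tested. Depth is unknown, so weak H3K27me3 differences cannot be judged against counting error.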
